A study of Mus musculus with 2 samples.

Results

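The genes described here encode the enzymes, and the proteins that regulate them, which make and break down sphingolipids. They comprised 37 members of the 31053 genes counted in the series, chosen by symbol and placed in 7 branches of the pathway, with the ceramide synthases left out. All 37 had at least 1 UMI (a tag on each captured RNA molecule, so that PCR copies count once). The counts came from 3′ single-cell RNA-seq of cells from the mouse colon. The mice were bone marrow chimeras: CD45.1 recipients had been given CD45.2 marrow that lacked the IL-10 receptor (labelled IL-10R KO; the study's methods name Il10rb-KO donors) or the receptor together with ceramide synthase 2 (IL-10R/CerS2 DKO). Both libraries therefore carried the IL-10 receptor deletion, neither was wild type, and donor marrow supplied blood cells of every lineage while other cells stayed those of the host. The cells had been sorted as CD45+ cells with CD11b, CD11c and CD64 on their surface. Each genotype was 1 library and the number of mice pooled in it was not given in the sources used here. Genotype, mouse, sort and library therefore cannot be told apart. No test was run, and every interval printed with a value below covers counting error only.

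Sphingolipids are built on a sphingoid base. De novo synthesis joins serine to palmitoyl-CoA and ends in ceramide. On the way, ceramide synthases attach a fatty acid to the sphingoid base. Ceramide is then turned into sphingomyelin, ceramide 1-phosphate or glycosphingolipids, and is released again by sphingomyelinases and by the glycosidases of the lysosome. Ceramidases free sphingosine, which sphingosine kinases convert to sphingosine 1-phosphate, a signal that guides lymphocyte traffic. CerS2 makes the ceramides with very long acyl chains, and the study asked what its loss does to macrophages without IL-10 signalling. Macrophages digest other cells in lysosomes and so meet large amounts of sphingolipid.

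The KO library held 2584 barcodes and 12549471 UMIs, the DKO library 742 barcodes and 3414944 UMIs, and 1 barcode sequence was found in both. After filtering, 2443 and 730 cells were kept, with medians of 4715 and 3722 UMIs per cell. Clustering without the members gave a monocyte/macrophage-like class of 1513 KO and 315 DKO cells, with 8674364 and 1764759 UMIs. All 17 monocyte and macrophage markers were found in it in both libraries, at a summed level of 17182 CPM in KO (CPM, a gene's UMIs per 1000000 UMIs of the cells summed) and 19846 CPM in DKO, against at most 46.5 CPM for the 11 B cell markers and 17.4 CPM for the 10 T cell markers. Although the study sorted to exclude them, B cell-like cells (229 KO, 166 DKO), T cell-like cells (148 and 45) and neutrophil-like cells (161 and 48) were present, as were dendritic cell-like cells (128 and 60). A further cluster led by Ikzf2, Xcl1 and Cd7 (142 and 67 cells) was left unnamed, and it is called the Xcl1-led cluster below. Classes with under 50 cells in DKO are shown but not compared between libraries. Cers2 was counted 442 times in the KO monocyte/macrophage-like cells and 0 times in those of DKO, at least 29.97-fold lower when 3 counts are taken as the floor. Il10rb had 39 and 8 UMIs there. The deleted part of Il10rb is not set out here, and a count at the 3′ end may lie outside it, so Il10rb checked neither label.

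In the monocyte/macrophage-like cells the members took 0.326% of all UMIs in KO and 0.386% in DKO. More than any other member, Psap carried that total, with 54.6% of the members' UMIs in KO and 53.9% in DKO. Psap (ENSMUSG00000004207, chromosome 10, 60277627 to 60302597, plus strand, GRCm38) encodes prosaposin, the precursor of the saposins that present sphingolipids to lysosomal hydrolases. Its level was 1778 CPM in KO (95% exact Poisson interval 1750 to 1807) and 2080 CPM in DKO (2013 to 2149). Without Psap the members summed to 1478 CPM in KO against 1782 CPM for DKO. The members next in level in KO were Hexa at 132 CPM, Gla at 122 CPM, Ugcg at 113 CPM, Asah1 at 112 CPM and Sgpl1 at 108 CPM, and the intervals of Gla, Ugcg, Asah1 and Sgpl1 overlapped. These are 3′ tag counts, 1 per captured molecule, so they are not scaled by transcript length, though capture can differ between genes. The branch sums in KO ran from 133 CPM for glycosphingolipid synthesis, 138 CPM for the sphingomyelin synthases and 163 CPM for the sphingosine 1-phosphate branch to 176 CPM for the sphingomyelinases, 230 CPM for ceramidases and ceramide kinase, 274 CPM for de novo synthesis and 2143 CPM for glycosphingolipid breakdown.

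**Figure D1:**
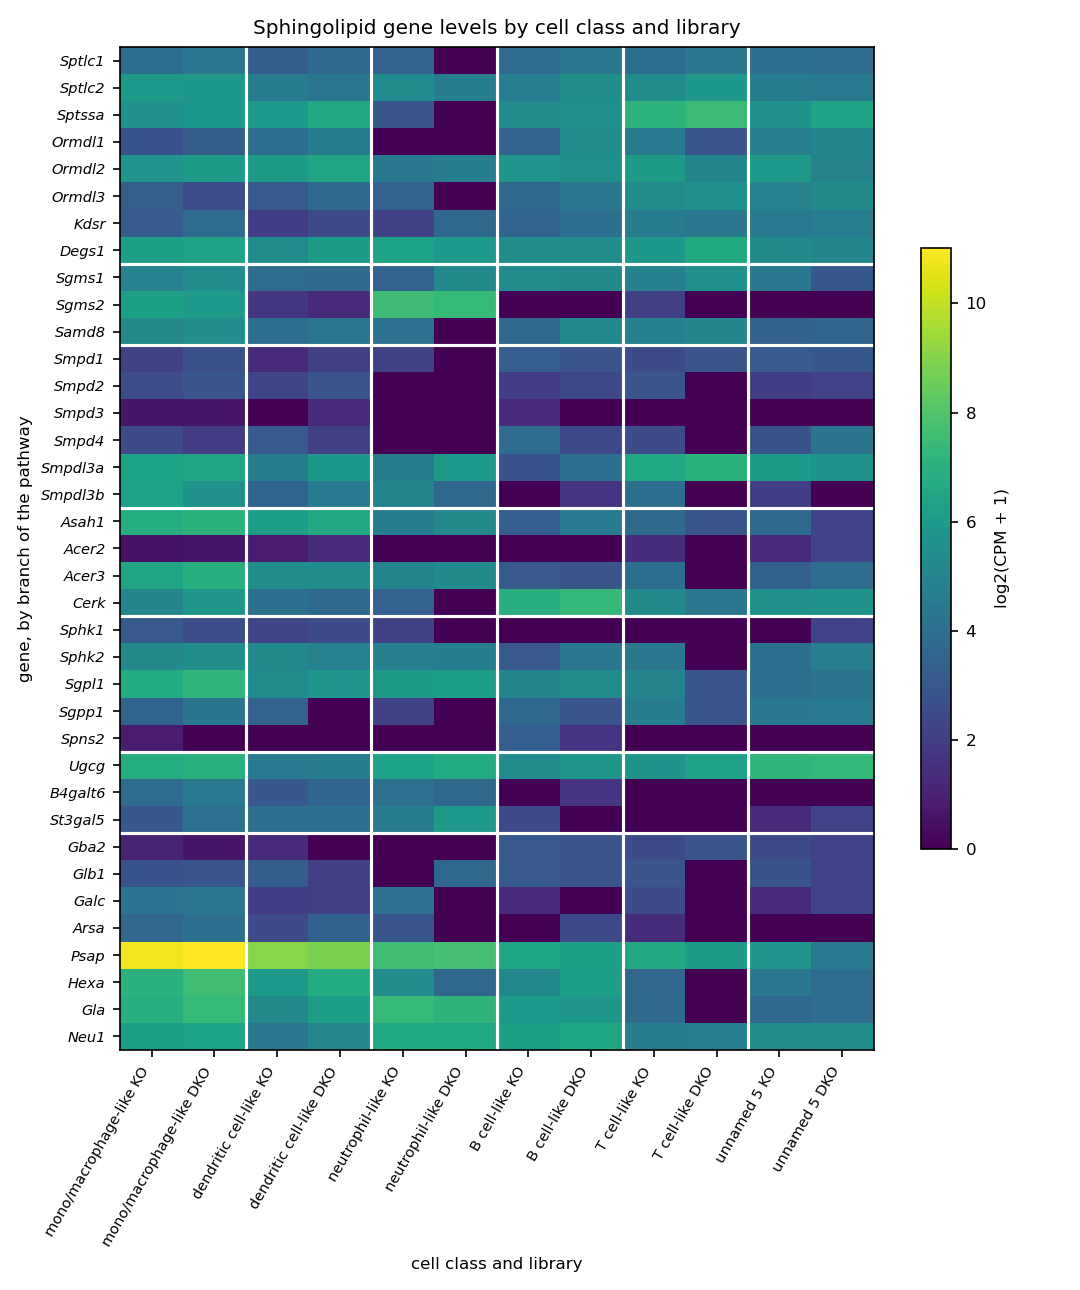
Level of each of the 37 genes (rows, grouped by branch and separated by white lines) in 6 cell classes of the KO and DKO libraries (columns), as log2 of CPM plus 1; each cell of the map is 1 sum of UMIs without a replicate, and "unnamed 5" is the Xcl1-led cluster. Psap is the brightest row, at 1778 and 2080 CPM in monocyte/macrophage-like cells, while Cerk is brightest in B cell-like, Sgms2 in neutrophil-like and Sptssa in T cell-like cells.

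Of the 9 lysosomal members, 6 stood at least 2-fold above the lymphoid cells in KO, while Neu1 was within 2-fold and Smpd1 and Glb1 had too few UMIs to be counted. Levels in monocyte/macrophage-like cells were set against B and T cell-like cells together (377 KO cells with 1281196 UMIs, 211 DKO cells with 616201 UMIs), counting a gene as apart at 2-fold with at least 100 UMIs over the classes compared. In KO, 13 of 25 members that reached 100 UMIs were at least 2-fold higher in monocyte/macrophage-like cells, or 52.0%, where 21.6% of all genes were. In DKO 8 of 15 were, or 53.3%, against 26.0% of all genes. The reverse held for 2 members in KO (Cerk and Ormdl3) and 1 in DKO (Cerk), with 12.8% and 10.1% of all genes. The median member had a log2 ratio of 1.33 in KO and 1.01 in DKO, and stood there also with genes at 0 put at their bound, while the median of all genes was -0.04 in KO and 0.12 in DKO. For the lysosomal members the medians were 2.47 over 7 genes in KO and 1.94 over 5 genes in DKO. The 23 and 20 lysosomal genes from outside the pathway that passed had medians of 2.18 and 2.48.

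Psap was 94.4 CPM in the KO B and T cell-like cells, a log2 difference of 4.23 (3.98 to 4.50) in level, and 71.4 CPM in those of DKO, a difference of 4.85 (4.44 to 5.33). Asah1, the acid ceramidase, was 112 against 10.9 CPM in KO and 136 against 17.9 CPM in DKO. Hexa, which encodes the alpha subunit of the hexosaminidase that cuts ganglioside GM2, was 132 against 23.4 CPM in KO and 195 against 51.9 CPM in DKO. All 3 were therefore lymphoid-low in both libraries. Gla, the alpha-galactosidase A gene, followed at 122 against 39.0 CPM and at 164 against 42.2 CPM. Arsa, which encodes arylsulfatase A, the enzyme that removes sulfate from sulfatide, was lower in level at 11.6 against 0.78 CPM in KO and 15.9 against 3.25 CPM in DKO. Galc, the galactosylceramidase gene, stood at 17.4 against 3.12 CPM in KO and at 19.8 CPM against no UMI in DKO. Neu1, a lysosomal sialidase, was the exception among the lysosomal members that passed in KO, at 74.7 against 49.95 CPM there and 82.2 against 74.7 CPM in DKO.

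Free RNA bears on the low end of these values. In the KO T cell-like cells Psap stood at 5.57% of its monocyte/macrophage-like level, where the macrophage genes Lyz2, Cd14, Apoe and C1qb stood at 6.20%, 5.20%, 2.86% and 1.22%. In the DKO T cell-like cells Psap stood at 3.12%, Lyz2 at 0.13% and the other 3 at 0. In the KO B cell-like cells Psap stood at 5.08%, where Lyz2 stood at 0.38%, C1qb at 0.88%, Cd14 at 0.16% and Apoe at 18.01%. With each cell thinned to 2000 UMIs, a step that dropped 92 of 1513 KO monocyte/macrophage-like cells, Psap was found in 86.0% of cells (84.1% to 87.8%, exact binomial interval), against 10.9% (7.69% to 14.9%) of the KO B and T cell-like cells. The values without thinning were 96.0% and 19.1%. In DKO the thinned shares were 92.4% (88.7% to 95.2%) and 9.66% (5.73% to 15.0%).

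Outside the lysosome, Acer3, Smpdl3b, Sgpl1, Sphk2, Ugcg, B4galt6 and Sgms2 were also at least 2-fold higher in monocyte/macrophage-like cells in KO. Acer3, an alkaline ceramidase, was 85.2 against 10.9 CPM in KO and 120 against 4.87 CPM in DKO. Smpdl3b, a surface phosphodiesterase related to acid sphingomyelinase, was 79.2 against 7.03 CPM in KO and 48.2 against 1.62 CPM in DKO. Sgpl1, the lyase that degrades sphingosine 1-phosphate for good, was 108 against 30.4 CPM and 152 against 30.8 CPM. Sphk2, a sphingosine kinase, was 35.3 against 13.3 CPM in KO and 44.2 against 14.6 CPM in DKO. Ugcg, which makes glucosylceramide, was 113 against 44.5 CPM and 125 against 61.7 CPM. B4galt6, a lactosylceramide synthase, had 118 UMIs in KO monocyte/macrophage-like cells and none in the KO lymphoid cells, at least 5.81-fold higher. In KO, glycosphingolipid breakdown had 5 of 6 measured members at least 2-fold higher and de novo synthesis 0 of 6, where 21.6% of all genes were. Of the lysosomal genes from outside the pathway 91.3% were, so the count for breakdown was not particular to that branch. With 6 genes, a count of 0 does not set de novo synthesis apart from all genes.

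**Figure D2:**
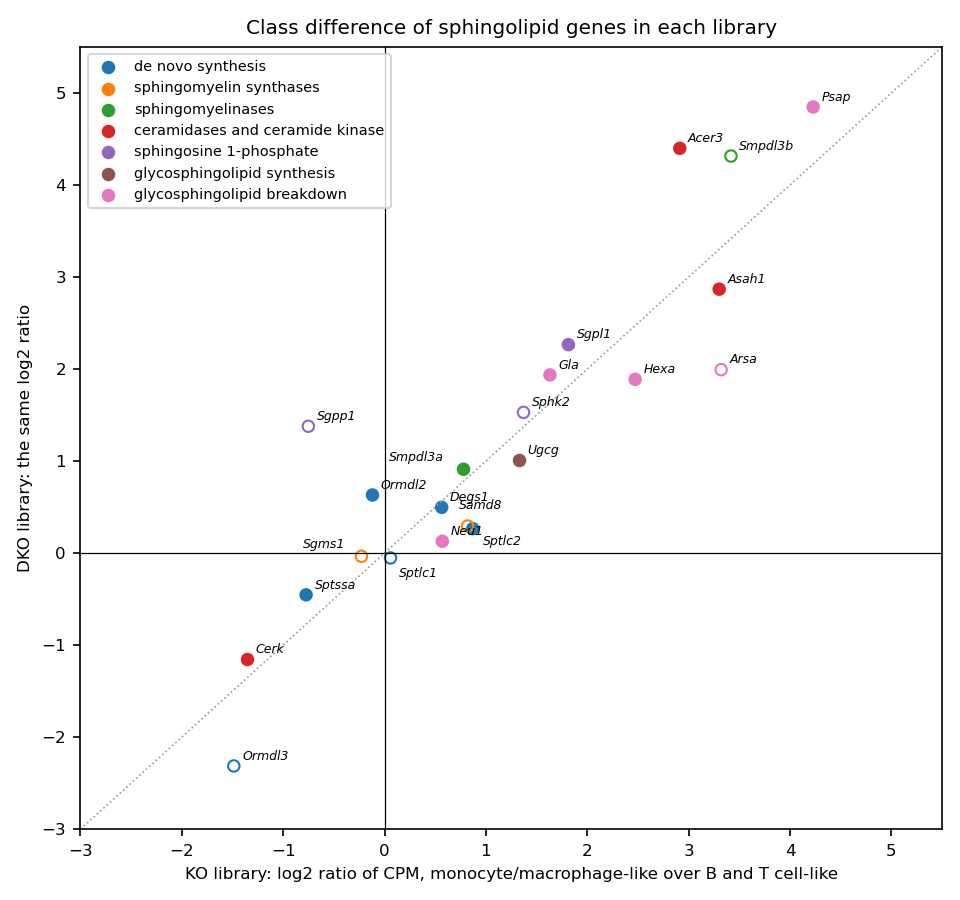
Log2 ratio of CPM in monocyte/macrophage-like over B and T cell-like cells in the KO library (x axis) and the DKO library (y axis) for the members with at least 100 UMIs in KO; each point is 1 gene, open points had under 100 UMIs in DKO, colours mark branches and the dotted line marks equal values. Psap is at 4.23 and 4.85 at the upper right and Cerk at -1.35 and -1.16 at the lower left; Sgms2, B4galt6 and Galc are left out because their lymphoid sum was 0 in a library.

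Several members were highest in a class other than the macrophages. Cerk (ENSMUSG00000035891, chromosome 15, 86139128 to 86186141, minus strand, GRCm38), the ceramide kinase gene, was highest in B cell-like cells, at 124 CPM in KO against 160 CPM for DKO, against 32.5 and 56.1 CPM in monocyte/macrophage-like cells. Thinned, it was found in 15.1% (11.3% to 19.6%) of KO and 23.9% (17.8% to 30.9%) of DKO B and T cell-like cells, and in 5.98% (4.81% to 7.34%) of KO and 10.3% (7.09% to 14.4%) of DKO monocyte/macrophage-like cells. Cerk marked B cells in both libraries, since T cell-like cells had 36.3 CPM in KO against 19.5 CPM for DKO. Sgms2, the sphingomyelin synthase of the plasma membrane, was highest in neutrophil-like cells, at 188 CPM in KO against 166 CPM for DKO. It was 74.1 and 59.5 CPM in monocyte/macrophage-like cells, had no UMI in the B cell-like cells of either library, and stood at least 12.2-fold higher in the DKO monocyte/macrophage-like cells than in the DKO B and T cell-like cells. Dendritic cell-like cells had 2.33 CPM in KO against 1.60 CPM for DKO, from 3 UMIs and 1 UMI. Sgms2 was thus high in neutrophil-like and monocyte/macrophage-like cells and near the T cell-like level in dendritic cell-like cells, whereas its Golgi counterpart Sgms1 was within 2-fold of the lymphoid cells, at 28.9 against 33.6 CPM in KO and 38.5 against 39.0 CPM in DKO.

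Of the de novo genes, Sptssa, a small subunit of serine palmitoyltransferase, was highest in T cell-like cells, at 139 CPM in KO against 182 CPM for DKO, against 50.4 and 58.4 CPM in monocyte/macrophage-like cells. Ormdl3, which restrains the same enzyme, was 39.6 and 45.4 CPM in T cell-like cells against 8.99 and 5.10 CPM. A second inhibitor, Ormdl1, was highest in the Xcl1-led cluster in KO at 26.7 CPM and in B cell-like cells in DKO at 41.1 CPM, from 17 and 19 UMIs. The third of the family, Ormdl2, was highest in dendritic cell-like cells, at 63.0 and 86.2 CPM, against 53.5 and 66.3 CPM in monocyte/macrophage-like cells. In KO T cell-like cells it was nearly as high, at 62.7 CPM. Ormdl1 and Ormdl3 were both lower in monocyte/macrophage-like than in B and T cell-like cells. Their log2 ratios were -1.53 and -1.49 in KO and -1.92 and -2.31 in DKO. Only Ormdl3 in KO reached 100 UMIs. Ormdl2 was within 2-fold in both libraries. The large subunits differed less between classes: Sptlc2 was 59.1 and 57.2 CPM in monocyte/macrophage-like cells and 32.0 and 47.1 CPM in B and T cell-like cells, and Sptlc1 was 15.0 and 19.3 against 14.1 and 19.5 CPM. Kdsr, which reduces the product of that enzyme, was highest in T cell-like cells in KO at 24.8 CPM and in the Xcl1-led cluster in DKO at 25.4 CPM. Degs1, the desaturase that turns dihydroceramide into ceramide, was highest in neutrophil-like cells in KO at 83.8 CPM and in T cell-like cells in DKO at 104 CPM, and the intervals of the leading classes overlapped in each library.

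Ugcg was highest in the Xcl1-led cluster, at 152 CPM in KO against 164 CPM for DKO. Smpdl3a, a secreted phosphodiesterase related to acid sphingomyelinase, was 94.1 CPM in KO against 136 CPM for DKO T cell-like cells, against 82.3 and 86.7 CPM in monocyte/macrophage-like cells, while B cell-like cells had 5.92 and 15.2 CPM. It was the only sphingomyelinase-branch member with over 50 CPM in T cell-like cells in either library. Gla and Neu1 were highest in neutrophil-like cells in KO, at 168 and 97.2 CPM. St3gal5, which makes ganglioside GM3, was highest in neutrophil-like cells at 23.5 CPM in KO from 7 UMIs. B4galt6, with 189 UMIs over all cells, was highest in neutrophil-like cells in KO and in monocyte/macrophage-like cells in DKO. Sgpp1, a phosphatase of sphingosine 1-phosphate, was highest in T cell-like cells in KO at 24.8 CPM and in the Xcl1-led cluster in DKO at 21.8 CPM, from 15 and 6 UMIs. Sphk2 was highest in dendritic cell-like cells in KO at 36.5 CPM and in monocyte/macrophage-like cells in DKO at 44.2 CPM. In the dendritic cell-like cells the monocyte and macrophage markers summed to 3294 CPM in KO (17 of 17 detected) and 7123 CPM in DKO (16 of 17), and their part in the levels of that class was not tested.

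Promoters are shown for members that hold a motif known from lysosomal genes. Lysosomal genes as a group are known to be driven by the MiT/TFE factors, which bind motifs around CACGTG. RefSeq promoters (GRCm38.p6, 250 bases before to 50 after the start) were found for 33 of the 37 members, and for 8 of the 9 lysosomal ones. The letters TCACGTG, searched on both strands and containing CACGTG, were in promoters of 3 of 8 lysosomal members (Gla, Glb1 and Arsa) and 3 of 25 other members (Degs1, Sgms2 and Smpd2). They were in 33.3% of the 9 lysosomal members' promoters, in 7.5% of the 40 promoters of other members, in 25% of the 20 promoters of the lysosomal genes outside the pathway, and in 3.77% of all 32851 promoters. CACGTG alone was in 33.3%, 15%, 30% and 7.15% of them. Psap and Hexa, the members with the highest levels, had neither in these windows. The stretch directly before the start is printed 5′ to 3′ on the gene's strand with the matched letters in capitals, for Gla (chrX:134601006-134601255, minus strand), Glb1 (chr9:114400978-114401077, plus strand), Arsa (chr15:89477425-89477524, minus strand) and, as a member of the de novo branch, Degs1 (chr1:182282196-182282295, minus strand).
Gla: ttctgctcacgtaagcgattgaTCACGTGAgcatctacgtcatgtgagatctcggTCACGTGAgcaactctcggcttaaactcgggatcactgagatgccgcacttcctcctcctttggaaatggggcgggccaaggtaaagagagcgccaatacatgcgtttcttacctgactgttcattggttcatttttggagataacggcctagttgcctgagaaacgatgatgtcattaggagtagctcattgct
Glb1: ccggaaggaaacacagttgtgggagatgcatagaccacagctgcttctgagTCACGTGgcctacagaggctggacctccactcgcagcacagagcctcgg
Arsa: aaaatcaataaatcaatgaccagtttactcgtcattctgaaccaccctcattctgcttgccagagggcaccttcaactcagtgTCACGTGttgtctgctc
Degs1: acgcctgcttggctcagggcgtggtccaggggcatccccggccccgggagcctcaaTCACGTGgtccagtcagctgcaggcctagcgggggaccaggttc
Gla holds the letters at 2 places, each read as TCACGTG on both strands. In DKO monocyte/macrophage-like cells Gla stood at 164 CPM, Glb1 at 6.8 CPM and Arsa at 15.9 CPM, so genes with a match differed widely in level.

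The monocyte/macrophage-like class held 6 subclusters: C1q-high-like (506 KO and 69 DKO cells), classical monocyte-like (431 and 88), led by Retnla, Mrc1 and C4b (157 and 87), led by Hes1 and Egr1 (193 and 48), hypoxic inflammatory-like with Arg1, Nos2 and Cxcl3 (184 and 1) and nonclassical monocyte-like (42 and 22). The Retnla- and Mrc1-led subcluster was 10.4% of the class in KO and 27.6% in DKO, and the hypoxic inflammatory-like one 12.2% and 0.32%. These shares bear on every comparison of the whole class between libraries.

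Sgms1 (ENSMUSG00000040451, chromosome 19, 32122727 to 32389714, minus strand, GRCm38) had the widest range of any measured member in KO over the subclusters other than the small nonclassical one, 14.4-fold. It was 124 CPM (99.6 to 153) in the Retnla- and Mrc1-led subcluster of KO, against 8.54 CPM in C1q-high-like, 25.5 CPM in classical monocyte-like and 21.2 CPM in hypoxic inflammatory-like cells. The 42 nonclassical monocyte-like cells had 96.4 CPM (51.3 to 164.8), which overlapped it. In DKO it was 130 CPM in the Retnla- and Mrc1-led subcluster, 1.90 CPM in C1q-high-like and 10.9 CPM in classical monocyte-like cells, with no UMI in the nonclassical ones. Sgms1 thus marked the same subcluster in each library. Sgms2 peaked elsewhere. It was highest in hypoxic inflammatory-like cells at 148 CPM and in classical monocyte-like cells at 95.8 CPM, and 58.6 CPM in the Retnla- and Mrc1-led subcluster, with 129 and 48.7 CPM in the last 2 in DKO. The synthases that make the same lipid at different membranes were therefore placed in different subclusters.

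Set against C1q-high-like and classical monocyte-like cells together in KO, the Retnla- and Mrc1-led subcluster had 3 of 20 measured members at least 2-fold higher (Sgms1, Cerk and Galc), where 9.76% of all genes were, and 1 lower (Smpdl3a), where 4.87% were. In DKO the log2 ratios of these 4 had the same sign, at 4.31 (3.20 to 5.92) for Sgms1, 0.71 (0.04 to 1.36) for Cerk, 1.48 (0.34 to 2.67) for Galc and -0.85 (-1.64 to -0.17) for Smpdl3a. All genes past 2-fold in KO with 20 UMIs in DKO kept their sign in 725 of 756 cases. Cerk was 74.3 CPM in KO against 81.1 CPM for DKO in this subcluster. B4galt6 was highest there too, at 45.7 and 62.6 CPM, against 7.97 and 7.59 CPM in C1q-high-like cells. Psap was also highest there, at 2802 CPM in KO against 2683 CPM for DKO.

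The hypoxic inflammatory-like cells, compared with the other subclusters in KO only, had 2 of 23 measured members at least 2-fold higher, Smpdl3b and Sgms2, with 5.64% of all genes higher. Smpdl3b (ENSMUSG00000028885, chromosome 4, 132732966 to 132757252, minus strand, GRCm38) was 180 against 62.6 CPM, a log2 difference of 1.53 (1.29 to 1.76). Sgms2 was 148 against 61.9 CPM, a difference of 1.26 (1.01 to 1.51). The 4 members at least 2-fold lower were Smpdl3a at 17.1 against 93.0 CPM, Acer3 at 39.1 against 92.8 CPM, Hexa at 67.7 against 143 CPM and Ormdl2 at 27.7 against 57.7 CPM, where 10.7% of all genes were lower. The median over the 7 measured lysosomal members was -0.77, against -0.39 for all measured members and -0.21 for all genes. Psap itself was 976 CPM in these cells, its lowest value among the KO subclusters. Sphk1, the inducible sphingosine kinase gene, had 33 of its 65 KO UMIs (50.8%) in these cells, which made up 12.2% of the class. It was too low to be counted among the measured members.

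Between C1q-high-like and classical monocyte-like cells of KO, 1 of 18 measured members was at least 2-fold higher in the C1q-high-like cells (Cerk, 35.0 against 15.6 CPM; 6.29% of all genes). The 3 lower ones, where 6.96% of all genes were lower, were Smpdl3a (51.3 against 178 CPM), Degs1 (47.0 against 107 CPM) and Acer3 (60.9 against 129 CPM). In DKO Cerk was 64.5 against 32.7 CPM, Smpdl3a 60.7 against 122 CPM, Degs1 70.2 against 91.5 CPM and Acer3 94.8 against 142 CPM. All 4 kept their direction, as did 581 of 592 among all genes, and the interval of the Degs1 ratio reached past 0 (-1.06 to 0.29). The nonclassical monocyte-like cells were few, 42 and 22. Their Smpdl3a levels of 371 CPM (275 to 489) in KO against 379 CPM (252 to 547) for DKO were the highest of that gene in any subcluster, and Smpdl3b stood at 311 CPM (224 to 421) and 189 CPM (103 to 318). Monocyte-like subclusters thus carried the most Smpdl3a in both libraries.

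**Figure D3:**
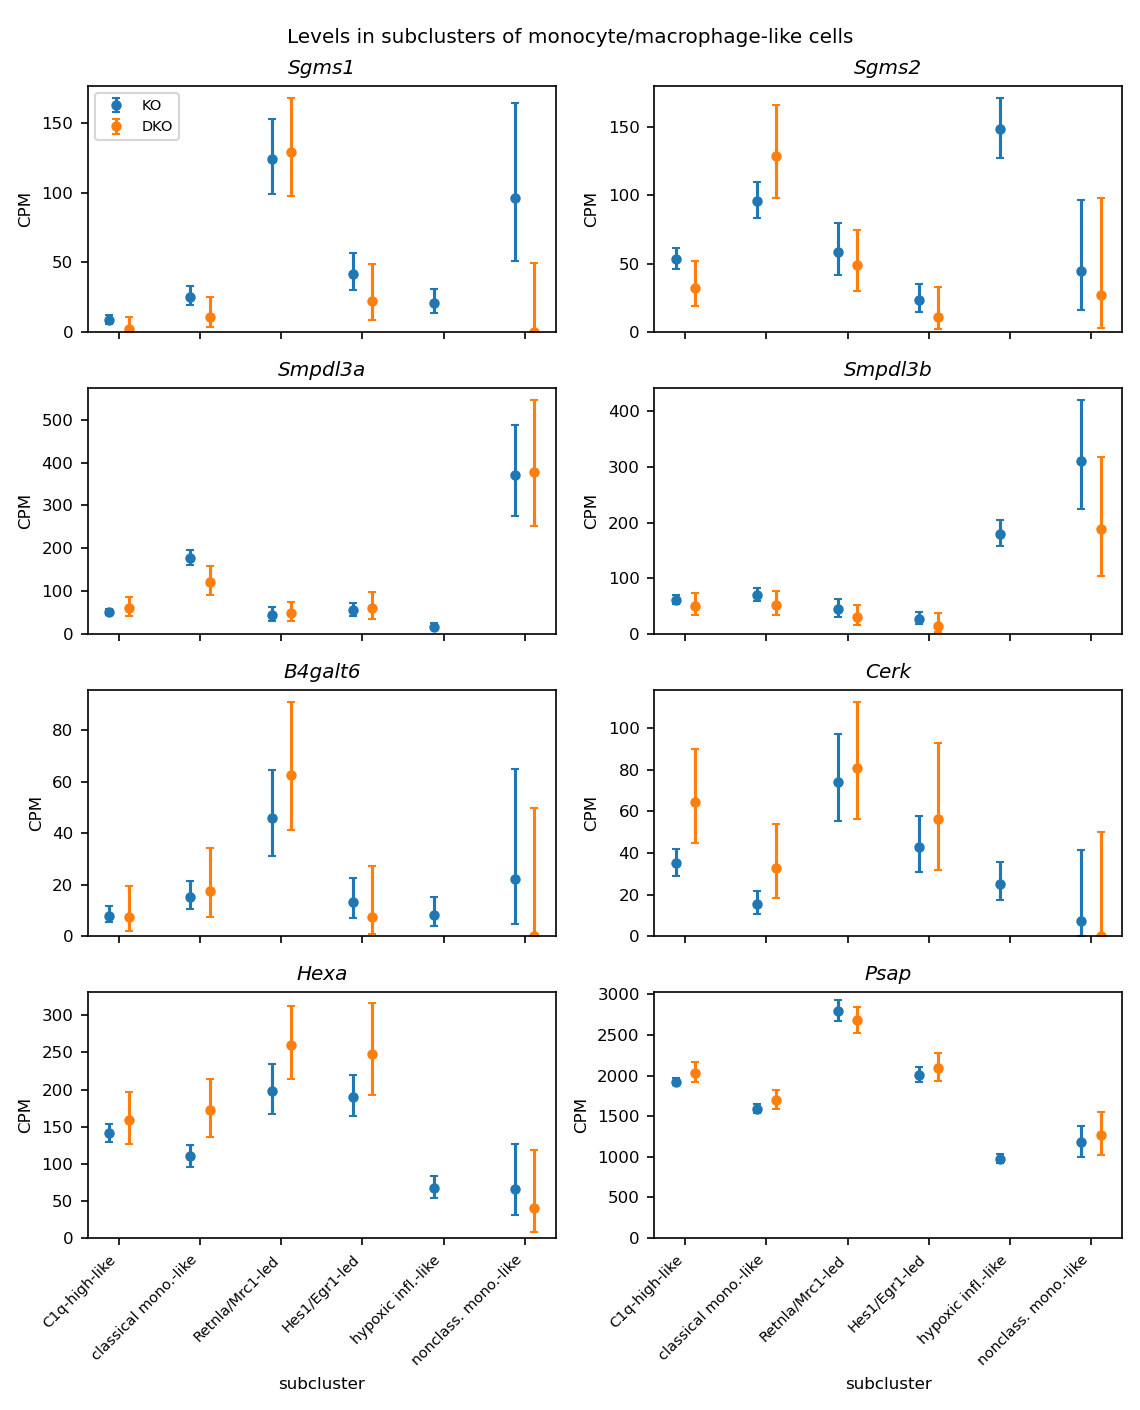
CPM (y axis) of 8 members in the 6 subclusters of monocyte/macrophage-like cells (x axis), with KO in blue and DKO in orange; each point is 1 sum of UMIs with its exact Poisson 95% interval, and the DKO hypoxic inflammatory-like point is not drawn because it was 1 cell. Sgms1 and B4galt6 peak in the Retnla- and Mrc1-led subcluster in both libraries, Smpdl3a in nonclassical monocyte-like cells, and Smpdl3b is 180 CPM in the KO hypoxic inflammatory-like cells.

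The comparison of DKO with KO asks whether the rest of the pathway differed where CerS2 was missing. In monocyte/macrophage-like cells 24 of 37 members had at least 100 UMIs over both libraries. Their median log2 ratio of DKO over KO was 0.30, with 21 above 0, and 11 of 24 had an interval wholly above 0 where 17.8% of all genes did, and 2 wholly below where 11.6% did. Of all 6712 genes with 100 UMIs the median was 0.08, with 60.3% above 0. Scaling by the trimmed mean of M values (TMM) in place of totals moved every ratio by -0.12, to a median of 0.18 for the members with 20 above 0, and to -0.04 for all genes with 43.9% above 0. After that shift the intervals of Ormdl2, Sgms1 and Asah1 included 0, which left 8 members above 0, or 33.3%, against 9.15% of all genes. These intervals narrow as counts grow, and members and other genes were not matched for counts. Taking 1.5-fold as the limit, 3 members were higher in DKO (Cerk, Sgpp1 and B4galt6), or 12.5%, where 5.87% of all genes were, and 1 was lower (Smpdl3b), or 4.17%, where 5.65% were. With TMM the members' counts were again 3 and 1, while those of all genes went from 394 higher and 379 lower to 215 and 554. With subclusters weighted as in KO, Sgpp1 was at 0.40, B4galt6 at 0.11 and Smpdl3b at -0.43, all within 1.5-fold, and only Cerk, at 0.66, of these 4 stayed past it, while Sgms1, at -0.61, then lay past it below. Counts of 3 and 1 are too few to set the members apart from that background.

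The ceramidases and ceramide kinase had a median of 0.49 over 3 genes. Cerk was 32.5 CPM (28.8 to 36.5) in KO against 56.1 CPM (45.6 to 68.3) for DKO, a log2 ratio of 0.79 (0.44 to 1.12). Acer3 was 85.2 CPM (79.2 to 91.6) and 120 CPM (104 to 137), a ratio of 0.49 (0.26 to 0.71). Asah1 was 112 CPM (105 to 119) and 136 CPM (119 to 154), a ratio of 0.29 (0.08 to 0.49). Scaled by totals, all 3 were higher in DKO by more than counting error, while with TMM the interval of Asah1 included 0. With subclusters weighted as in KO the ratios of Acer3 and Asah1 were 0.25 and 0.22. In the sphingosine 1-phosphate branch, with a median of 0.49, Sgpl1 was 108 CPM (102 to 116) and 152 CPM (134 to 171), a ratio of 0.49 (0.29 to 0.68). Sgpp1 was 10.8 and 18.7 CPM from 94 and 33 UMIs, a ratio of 0.80 (0.17 to 1.37). Sphk2 was 35.3 and 44.2 CPM, and its interval (-0.05 to 0.69) included 0. The intervals of Sgpl1 and Sgpp1 lay above 0 but overlapped that of Sphk2. With subclusters weighted as in KO the ratios were 0.41 for Sgpl1, 0.40 for Sgpp1 and 0.35 for Sphk2, so they do not set these genes apart.

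Among the genes for glycosphingolipid breakdown the 6 measured members were all above 0, with a median of 0.33 that became 0.21 with TMM. Hexa (ENSMUSG00000025232, chromosome 9, 59539540 to 59565109, plus strand, GRCm38) was 132 CPM (125 to 140) in KO against 195 CPM (175 to 217) for DKO, a log2 ratio of 0.56 (0.38 to 0.74), just inside the 1.5-fold limit of 0.58. Thinned, Hexa was found in 22.0% (19.9% to 24.3%) of KO and 34.1% (28.7% to 39.9%) of DKO cells, and without thinning in 45.3% and 57.5%. Gla was 122 CPM (115 to 130) and 164 CPM (146 to 184), a ratio of 0.43 (0.24 to 0.62). Psap had a ratio of 0.23 (0.17 to 0.28). The lysosomal members as a whole had a median of 0.29 over 7 genes, beside 0.21 over 23 lysosomal genes from outside the pathway, of which Ctsd at 0.75 and Lgmn at 0.61, both lysosomal protease genes, were past 1.5-fold. With TMM these medians were 0.17 and 0.09, and 7 of 7 and 17 of 23 genes were above 0.

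Of the first steps, only genes past 100 UMIs are counted here, and Kdsr, Ormdl1 and Ormdl3 are given below. De novo synthesis had a median of 0.22 over 5 genes, from -0.04 for Sptlc2 to 0.38 for Sptlc1, and only Ormdl2, at 53.5 and 66.3 CPM, had an interval above 0 (0.005 to 0.61). Degs1 was 73.2 CPM in KO against 81.0 CPM for DKO, a ratio of 0.15 (-0.13 to 0.41). Sptssa was 50.4 and 58.4 CPM, a ratio of 0.22 (-0.11 to 0.53). In glycosphingolipid synthesis, Ugcg was 113 CPM (106 to 120) and 125 CPM (109 to 143), a ratio of 0.15 (-0.07 to 0.36), while B4galt6 was 13.6 and 23.2 CPM from 118 and 41 UMIs, a ratio of 0.78 (0.22 to 1.30). St3gal5 had 60 and 29 UMIs, under the limit of 100 in sum, at 6.92 and 16.4 CPM, a ratio of 1.26 (0.56 to 1.91).

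The sphingomyelin branches went both ways. Smpdl3b was 79.2 CPM (73.4 to 85.4) in KO against 48.2 CPM (38.5 to 59.6) for DKO, a log2 ratio of -0.71 (-1.06 to -0.39). The hypoxic inflammatory-like cells held 32.2% of its UMIs in KO. Sgms2 was 74.1 and 59.5 CPM, a ratio of -0.31 (-0.63 to -0.02), and those cells held 28.3% of its UMIs in KO. Without that subcluster the ratios were -0.42 for Smpdl3b, which was then within 1.5-fold, and -0.09 for Sgms2. Sgms1 was 28.9 and 38.5 CPM, a ratio of 0.42 (0.005 to 0.81). Samd8, which makes the ethanolamine counterpart of sphingomyelin, was 35.1 and 42.5 CPM, and Smpdl3a was 82.3 and 86.7 CPM. The intervals of both included 0.

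**Figure D4:**
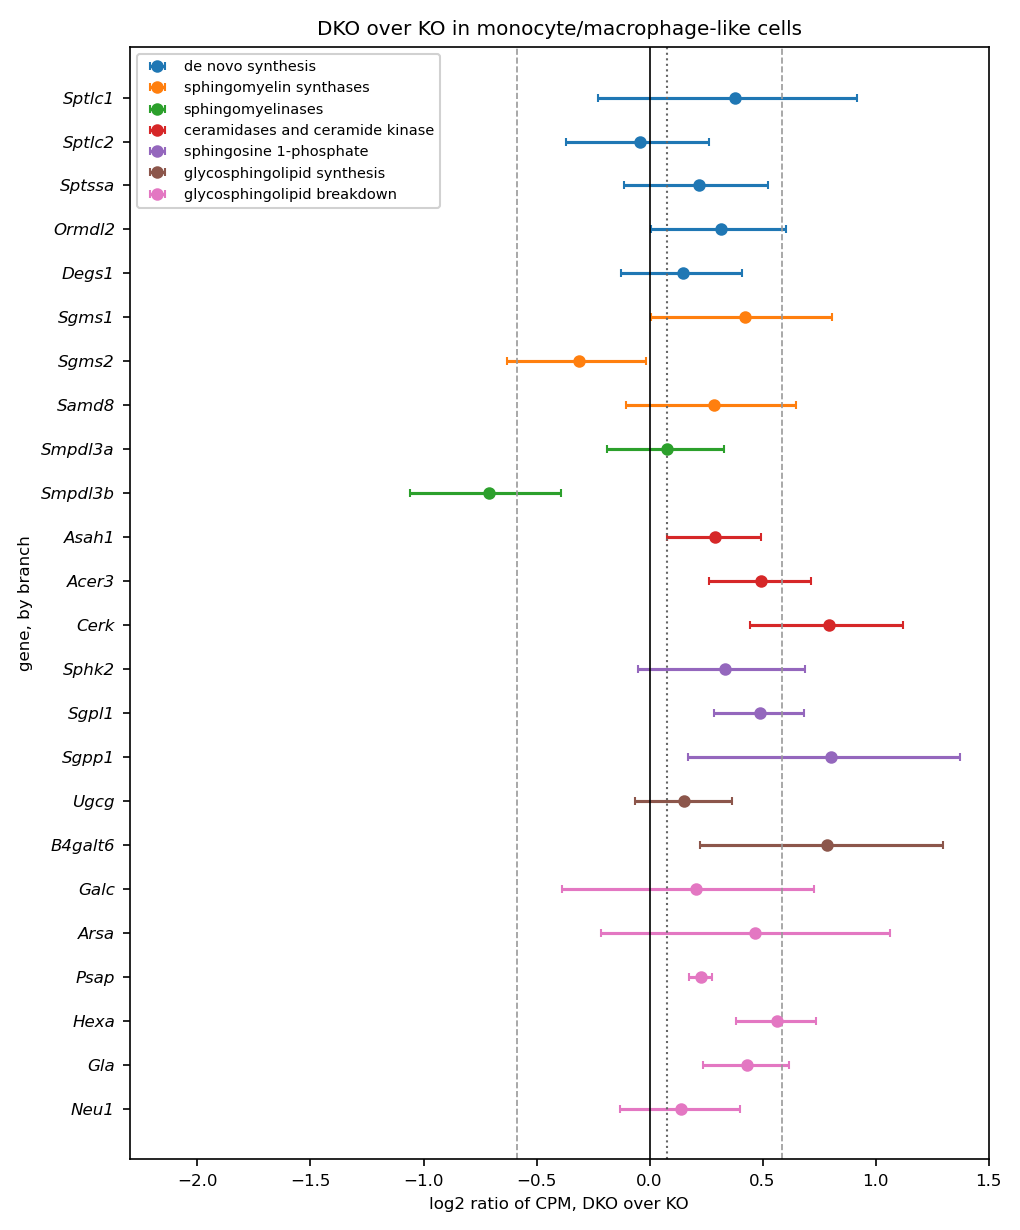
Log2 ratio of CPM in DKO over KO monocyte/macrophage-like cells (x axis) for the 24 members with at least 100 UMIs (y axis, coloured by branch), with exact 95% intervals for counting error in 1 library of each genotype. The dashed lines mark 1.5-fold and the dotted line the median of all genes, 0.08; Cerk, Sgpp1 and B4galt6 lie beyond the upper line and Smpdl3b, at -0.71, beyond the lower one.

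DKO and KO were also compared within the subclusters that had at least 50 cells in both libraries. Members with 100 UMIs had a median log2 ratio of 0.23 in C1q-high-like cells (15 of 18 above 0), 0.22 in classical monocyte-like cells (11 of 15) and 0.03 in the Retnla- and Mrc1-led subcluster (5 of 8). The medians of all genes there were 0.00, -0.01 and -0.01, with 49.6%, 48.6% and 49.4% of them above 0. Cerk was higher in DKO in C1q-high-like cells, at 0.90 (0.29 to 1.44), and in classical monocyte-like cells, at 1.10 (0.08 to 1.99) from 33 and 15 UMIs, but its ratio in the Retnla- and Mrc1-led cells was 0.13 (-0.54 to 0.77). Hexa stood at 0.18 (-0.18 to 0.51), 0.65 (0.26 to 1.02) and 0.39 (0.01 to 0.76) in the 3. Gla stood at 0.34, 0.81 (0.41 to 1.18) and 0.03. Acer3 stood at 0.65 (0.16 to 1.09), 0.14 and -0.03. Psap stood at 0.08, 0.10 and -0.06, with intervals that included 0. For each of these lysosomal and ceramidase genes the intervals overlapped between subclusters, and a difference between subclusters was not tested.

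The class ratios of several members moved when the share of the subclusters was held fixed. Inside the Retnla- and Mrc1-led subcluster the ratio of Sgms1 was 0.07 (-0.45 to 0.56) from 87 and 56 UMIs. It was -1.61 in C1q-high-like cells from 30 and 1 UMIs and -1.10 in classical monocyte-like cells from 54 and 5 UMIs, and both intervals included 0. When the subclusters with at least 20 cells in both libraries were given the weights they had in KO, the ratio of Sgms1 over the class was -0.61, the opposite sign to the 0.42 of the sums. Inside subclusters B4galt6 had ratios of 0.46 (-0.34 to 1.24) in Retnla- and Mrc1-led, 0.27 in classical monocyte-like and 0.07 in C1q-high-like cells, all with intervals that included 0. It went from 0.78 to 0.11 with the same weights, Hexa from 0.56 to 0.37 and Psap from 0.23 to 0.06, while Cerk went from 0.79 to 0.66. St3gal5 was counted 6 times in KO and 16 times in DKO in the Retnla- and Mrc1-led cells, a ratio of 2.04 (0.69 to 3.75).

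Outside the macrophages, DKO and KO were compared in the classes with at least 50 cells in each library. In dendritic cell-like cells 20 members had at least 20 UMIs. The intervals of 6 of them (Gla, Smpdl3a, Hexa, Degs1, Sptssa and Asah1) lay above 0, or 30%, where 9.18% of all genes did, and that of Psap lay below 0, where 13% did. Smpdl3a stood there at 24.9 CPM in KO against 57.5 CPM for DKO (log2 ratio 1.21, 0.48 to 1.94). Gla stood at 37.3 against 70.3 CPM (0.92, 0.29 to 1.53) and Hexa at 61.4 against 108.6 CPM (0.82, 0.33 to 1.31), whereas Psap was lower in DKO at 540 against 460 CPM. The class also differed in its markers: those of monocytes and macrophages summed to 3294 CPM in KO against 7123 CPM for DKO, and those of T cells to 720 against 83.0 CPM, and their part in these ratios was not tested. In B cell-like cells Ormdl1 (7 and 19 UMIs), Samd8 (8 and 16) and Hexa (23 and 32) had intervals above 0, 3 of 14 members where 9.66% of all genes did, and 0 lay below 0 where 4.14% did, while Cerk had a ratio of 0.37 (-0.11 to 0.83). In the Xcl1-led cluster 1 of 12 members, Psap (35 and 6 UMIs), had an interval below 0, where 7.81% of all genes did, and 0 had one above 0, where 6.47% did, and Ugcg, the member highest there, had a ratio of 0.11 (-0.44 to 0.63).

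Other genes of the pathway were looked up from a list of 33 symbols, of which 32 were in the count tables. In monocyte/macrophage-like cells 11 had at least 100 UMIs, with a median log2 ratio of DKO over KO of 0.16, beside 0.08 for all genes. With TMM this median was 0.04. Gltp, which carries glycolipids between membranes, was 62.9 CPM in KO against 100.3 CPM for DKO, a ratio of 0.67 (0.42 to 0.92). B4galt5, the other lactosylceramide synthase gene, was higher in level than B4galt6, at 156 and 192 CPM, with a ratio of 0.30 (0.13 to 0.48).

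The 13 members under 100 UMIs in the monocyte/macrophage-like class were Ormdl1, Ormdl3 and Kdsr of de novo synthesis, Smpd1, Smpd2, Smpd3 and Smpd4 of the sphingomyelinases, Acer2, Sphk1, Spns2, St3gal5, Gba2 and Glb1. Smpd1, the lysosomal acid sphingomyelinase gene, was counted 31 times in KO and 10 times in DKO, or 3.57 and 5.67 CPM, and the neutral sphingomyelinase Smpd2 44 and 12 times. Their intervals, -0.53 to 1.73 and -0.63 to 1.37 on the log2 scale, included 0, so no difference was detectable at this depth. Kdsr was 7.84 and 13.6 CPM, with a ratio of 0.81 (0.06 to 1.48). Ormdl3 was 8.99 and 5.10 CPM, with a ratio of -0.75 (-2.0 to 0.18). Spns2, the exporter of sphingosine 1-phosphate, had 7 UMIs in KO and none in DKO, where 3 counts correspond to 1.70 CPM. Smpd3, Acer2 and Gba2 had at most 10 UMIs in either library, so whether these cells express them differently was not detectable at this depth.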

How the data were processed

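Single-cell RNA-seq was measured in 1 library per genotype. The files deposited by the authors hold raw UMI counts, a value for each gene in each barcode, made with Cell Ranger 6.0.1 on mm10, per the submitters' processing notes. Members and gene lists were chosen with earlier results of these data known. Following the study's filter, cells with 300 to 5000 genes and no more than 10% of mitochondrial UMIs entered. They were clustered with Seurat 5.3.0 (R 4.3.3), with 2000 variable genes, without the members and the ceramide synthase genes, 30 components, 20 neighbours and resolution 0.3, and cell names given by the study were not used here. Clusters were named from marker lists. A name needed 3 markers, and clusters led by genes of other classes stayed unnamed, as did 1 cluster of low UMI counts. Doublets were not removed. Scrublet (scanpy 1.11.5) called 6 KO and 2 DKO barcodes at its own threshold.

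UMIs were summed per class and library and given as CPM, with exact Poisson intervals. Ratios had 0.5 counts added and exact conditional intervals (95%), and at least 100 UMIs over the sums compared were needed for a gene to be counted. The self-test on simulated data recovered the ratios it was made with. Alternatives were TMM (edgeR 4.0.16) and DESeq2 1.42.0 size factors (used for scaling only), other minima and added counts, stricter filters, resolution 0.8, a marker gate per cell and the left-out or reweighted subclusters.

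The named genes were, in each branch, the 3 members with the most UMIs, every member past 1.5-fold, members highest in a class other than the monocyte/macrophage-like one or in different classes of the 2 libraries, and those with the widest range over subclusters. Gene positions are from GENCODE vM21 and promoters from RefSeq. No protein sequence was used here. The values of 1 gene on the list of other pathway genes are not reported here.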

Additional observations from a re-analysis of the deposited data

Results flagged for a closer look

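In dendritic cell-like cells Psap and Sgpp1, and in the Xcl1-led cluster Psap, differed between DKO and KO in the direction opposite to that in the monocyte/macrophage-like sums. Their intervals for counting error excluded 0 on both sides. In dendritic cell-like cells 6 other members had intervals above 0, as given above. The difference between the classes was not tested, since each is 1 library per genotype. Psap had a log2 ratio of DKO over KO of -0.23 (-0.43 to -0.03) in dendritic cell-like cells, from 695 and 288 UMIs, against 0.23 in monocyte/macrophage-like cells. The latter became 0.06 with subclusters weighted as in KO. Inside subclusters Psap stood at 0.08 in C1q-high-like, 0.10 in classical monocyte-like and -0.06 in Retnla- and Mrc1-led cells, with intervals that included 0. Psap also had a ratio of -1.24 (-2.87 to -0.07) in the Xcl1-led cluster, from 35 and 6 UMIs. There the macrophage gene Apoe was 196 CPM in KO against 7.27 CPM for DKO, and the part of free RNA in the Psap value was not tested. Sgpp1 had 13 UMIs in the KO and none in the DKO dendritic cell-like cells, at least 2.11-fold lower. That is under the minimum of 20 UMIs used for this class. Its ratio in monocyte/macrophage-like cells was 0.80, or 0.40 with subclusters weighted as in KO. T cell markers summed to 720 CPM in the KO and 83.0 CPM in the DKO dendritic cell-like cells. Sgpp1 was 24.8 CPM in KO T cell-like cells, and the part of T cell RNA in its dendritic cell-like value was not tested.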

How the results depend on the processing

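No paired analysis was possible because each genotype was 1 library. Of 178 recomputed values for 15 summary results, 167 stayed within the interval of the main value (within 1.5 times for counts). For a median over genes that interval was the spread between the genes, not counting error, and their whole range in short lists. A value was called reversed only if it changed sign and the main interval excluded 0, and none was. The ranges of de novo synthesis (-0.04 to 0.38), the sphingomyelin synthases (-0.31 to 0.42) and the sphingomyelinases (-0.71 to 0.08) included 0. No reversal could be called for them. Medians that changed sign without that call included the sphingomyelin synthases, from 0.285 to -0.018 with subclusters weighted as in KO. The sphingomyelinases went from -0.316 to 0.25 with 1 UMI as the minimum. With a minimum of 20 UMIs there were 7 members at least 1.5-fold higher and 3 lower in DKO, against 3 and 1, and with 1 UMI there were 8 and 4, since genes of few counts then enter. With subclusters weighted as in KO there was 1 higher, the ceramidase and ceramide kinase median was 0.25 and the glycosphingolipid synthesis median 0.047. As a mean over cells there were 6 higher, and the glycosphingolipid synthesis median was 0.94, where St3gal5 was the middle of 3 genes counted. Without the hypoxic inflammatory-like subcluster there were 0 lower, with Smpdl3b at -0.42. The shares of all genes past 1.5-fold are not given for these alternatives, so their counts of members are not read against a background. With 1 UMI as the minimum the sphingomyelinase median was 0.25 over 6 genes. Of 324 values for 27 named genes, 313 were the same, 10 moved beyond their interval and 1 reversed: Sgms1, at -0.61 with subclusters weighted as in KO. The T cell-like cells of DKO alone were not compared, being 45. In the stricter filter, the filter on doublet scores and resolution 0.8, most T cell-like cells were in an unnamed cluster, so the comparison there rests mainly on B cell-like cells. An alternative added after seeing the data, with the Xcl1-led cluster among the lymphoid cells, left the class medians within their intervals. Depth in DKO limits members under 100 UMIs.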
